A study of Mus musculus with 64 samples.

Results

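The 9 genes described here encode neuronal microtubule-associated proteins and relatives of doublecortin: Map6, Map1a, Map1b, Map2, Map4, Mapt, Dcx, Dclk2 and Dclk3. They are 9 of the 46785 genes in the isoform tables and hold 79 of the 112714 listed transcripts. Map6 was chosen by the drug differences of its transcript Map6-204 in these same NAc libraries, and the other members for their kinship with Map6 or with doublecortin. The drug values of Map6 are therefore given as a description without a test, whereas the difference between the tissues was tested for all 9 genes. Dclk1 was left out.

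RNA depleted of ribosomal RNA was sequenced from the nucleus accumbens (NAc) and prefrontal cortex (PFCx) of adult male C57BL/6N mice aged 8 to 10 weeks, 2 h after 1 intraperitoneal injection. The treatments were haloperidol (1 mg/kg) and risperidone (0.5 mg/kg), both antipsychotics dissolved with a drop of HCl added to the saline, the antidepressants mianserin (20 mg/kg) and venlafaxine (16 mg/kg), the psychostimulant methamphetamine (2 mg/kg) and the psychotomimetic ketamine (20 mg/kg), all 4 given in plain saline, or saline alone. There were 4 libraries for every drug in either tissue and 8 for saline, which the labels split into sets I and II of equal size, 64 libraries in all. The labels do not say whether libraries are separate mice, whether RNA was pooled, or whether 1 mouse gave both tissues, so p-values measure only the spread between these libraries.

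Microtubules are polymers of tubulin that give neurites their shape and carry transport. Microtubule-associated proteins bind along the polymer and change its stability, spacing and use by motors. Map2 is mainly dendritic, tau (Mapt) mainly axonal, Map6 protects microtubules against cold and drugs that depolymerise them, and proteins with doublecortin domains bind the lattice and are best known for their part in neuronal migration.

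The tissue labels were checked against marker genes. After saline, the summed abundance of 8 striatal markers had a median of 646 FPKM in the NAc (range 533 to 725) and 26.4 FPKM in the PFCx (22.2 to 78.8). FPKM (fragments per kilobase and mapped fragments) is corrected for transcript length, so levels can be compared between genes. The sum of 6 markers of cortical projection neurons was 48.5 FPKM (25.0 to 69.3) in the NAc and 187 FPKM (167 to 219) in the PFCx. None of the defining markers was at 0 in the other tissue on average: Drd2 was 14.6 FPKM in the NAc and 0.485 FPKM in the PFCx, and Slc17a7 was 35.05 and 129.5 FPKM. In 4 PFCx libraries, replicates 1 and 3 of ketamine, 3 of risperidone and 4 of saline set II, the striatal sum was 54.15 to 78.8 FPKM, against 22.2 to 40.6 FPKM in the other 28. Results that rest on these libraries are given with and without them. Sums of 5 oligodendrocyte markers also differed, with medians of 596 FPKM (512 to 703) in the NAc and 143 FPKM (131 to 184) in the PFCx, as did those of 6 neuroblast markers, with 13.9 FPKM (13.2 to 18.3) and 7.85 FPKM (6.63 to 8.87). Medians were 69.4 and 72.7 FPKM for 4 astrocyte markers, 18.03 and 15.6 for 3 microglial markers, 13.1 and 13.2 for 3 endothelial markers and 1.06 and 1.39 for 3 choroid plexus markers. Within the astrocyte sum, which Slc1a3 leads (57.2 and 53.6 FPKM), Gfap was 3.79 and 7.65 FPKM and Aqp4 4.39 and 6.10 FPKM. In bulk tissue, fewer cells of a type and less RNA per cell cannot be told apart.

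The libraries also fell into 2 sample sets. In the NAc, between 85287 and 87827 transcripts were detected in saline set I, haloperidol, risperidone and methamphetamine libraries, and between 107099 and 110556 in saline set II, mianserin, venlafaxine and ketamine libraries. In the PFCx this number does not separate the same groups (108878 to 110852 and 108556 to 110620). Drug differences are given against all 8 saline libraries of the tissue and in most cases also against the 4 of the own sample set. The labels give the set only for saline, so the set of each drug is read from the NAc numbers.

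Several results turn on pairs of transcripts that share an exon and then part. Positions and bases are from the GENCODE vM21 annotation of GRCm38 (mm10), and all 79 transcripts had an entry there. Letters in lower case are shared by the pair and capitals mark what follows the shared stretch in that transcript. Map6 lies at chr7:99267447-99337137 on the plus strand. Map6-201, the 906 amino acid form, joins the coding end of exon 3 (chr7:99317609-99317668) to exon 4 (from chr7:99335985-99336044). In Map6-204, of 568 amino acids, exon 3 runs on past the splice site and ends 2881 bases from its start, at position 99320352. The bases shown past the splice site (chr7:99317669-99317672) are the last coding base and the stop codon.
Map6-201: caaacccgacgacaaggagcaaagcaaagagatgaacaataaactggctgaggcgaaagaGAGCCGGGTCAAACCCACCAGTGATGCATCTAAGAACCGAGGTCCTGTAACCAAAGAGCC
Map6-204: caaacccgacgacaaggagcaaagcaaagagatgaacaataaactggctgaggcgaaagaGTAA

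Map4 lies at chr9:109931460-110083955 on the plus strand. Map4-205, with 19 exons and 1124 amino acids, and Map4-206, with 4 exons and 99 amino acids, share exon 3 (chr9:109999772-109999840). Map4-205 continues at chr9:110026101-110026160. The last exon of Map4-206 (chr9:110002746-110005739, 2994 bases) holds 5 coding bases before its stop codon, which end at position 110002753.
Map4-205: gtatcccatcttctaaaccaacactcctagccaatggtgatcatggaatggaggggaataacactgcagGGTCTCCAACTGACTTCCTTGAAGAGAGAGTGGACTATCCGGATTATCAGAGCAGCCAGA
Map4-206: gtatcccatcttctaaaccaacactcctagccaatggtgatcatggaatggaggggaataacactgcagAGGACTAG

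Map2 lies at chr1:66175273-66442583 on the plus strand. From a shared exon (chr1:66401462-66401521), Map2-204, of 1828 amino acids, enters a coding exon of 3741 bases (chr1:66412407-66412466 shown), which Map2-201, of 467 amino acids, skips for a later one (chr1:66420135-66420194) that is also an exon of Map2-204.
Map2-204: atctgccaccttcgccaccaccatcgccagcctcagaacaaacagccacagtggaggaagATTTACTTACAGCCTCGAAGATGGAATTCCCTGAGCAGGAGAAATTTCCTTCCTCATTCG
Map2-201: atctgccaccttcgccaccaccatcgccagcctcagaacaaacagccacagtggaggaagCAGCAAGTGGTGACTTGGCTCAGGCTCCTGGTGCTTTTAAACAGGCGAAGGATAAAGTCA

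**Figure D1:**
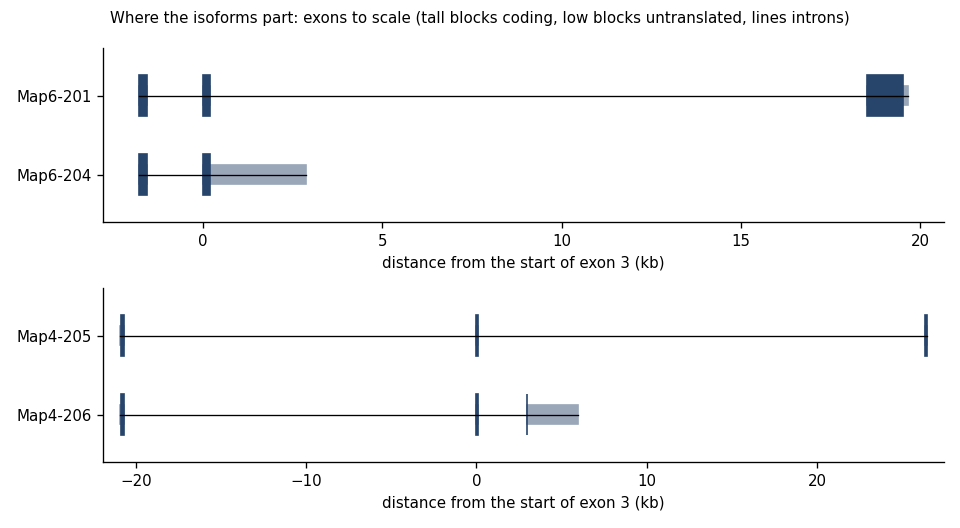
Exons around the point where Map6-201 and Map6-204, and Map4-205 and Map4-206, part, drawn to scale against the distance from the start of exon 3 in kilobases. Tall boxes are coding and low boxes untranslated. Map6-204 and Map4-206 end in a long, mostly untranslated last exon (2881 and 2994 bases), while their partners splice to an exon further on.

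The first comparison was between the tissues after saline. By summed FPKM, Map2 was the most abundant member in both tissues and Dcx the lowest. Map1a and Map1b came next, with Map1a above Map1b in the NAc (76.6 ± 3.61 and 53.95 ± 3.39 FPKM) and both alike in the PFCx (83.2 ± 6.08 and 83.3 ± 5.49 FPKM). The range ran from 147 FPKM (Map2) to 4.18 FPKM (Dcx) in the NAc and from 170 to 4.82 FPKM in the PFCx. Within the Map1a sum, the coding Map1a-202 was 58.4 ± 4.11 FPKM in the NAc and 58.6 ± 3.82 FPKM in the PFCx. The noncoding Map1a-204 was 12.8 and 19.6 FPKM. Of the 9 genes, 7 differed between the tissues, 2 higher and 5 lower in the NAc (limma on log2(FPKM + 1), Benjamini-Hochberg adjustment over 37034 genes, threshold 0.05). In all genes tested, 33.9% differed, 7.16% higher and 26.8% lower in the NAc, and the median difference was -0.10. Below, ranges that do not overlap are given as a description. The share of all genes, transcripts and transcript shares with such ranges is not given, so a lack of overlap does not set members apart.

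Summed transcripts of both doublecortin-domain kinases were higher in the NAc. Dclk3 (chr9:111439081-111489118, plus strand), a kinase of the doublecortin-like family with 1 listed transcript of 790 amino acids, ranged from 14.66 to 19.72 FPKM in the NAc (median 17.71) and from 4.835 to 5.674 FPKM in the PFCx (median 5.319). The groups do not overlap, and the difference was 1.56 on the log2 scale (SE 0.059, adjusted p = 4.67e-12), or 3.34-fold in mean FPKM (17.6 ± 1.74 and 5.28 ± 0.354, SD, n = 8 each). Dclk2 (chr3:86786151-86920852, minus strand) combines doublecortin domains with a kinase domain. It ranged from 10.04 to 12.73 FPKM in the NAc (median 11.04) and from 7.299 to 8.691 FPKM in the PFCx (median 7.942), again without overlap. The difference was 0.42 (SE 0.052, adjusted p = 8.86e-06), 1.38-fold. Under each of the 6 drugs both genes were also higher in the NAc, by 1.11 to 1.53 for Dclk3 and by 0.28 to 0.44 for Dclk2.

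Dcx (chrX:143855842-143933311, minus strand), the doublecortin of migrating neurons and neuroblasts, went the other way by a small margin. It ranged from 3.687 to 4.967 FPKM in the NAc (median 4.189) and from 3.996 to 5.389 FPKM in the PFCx (median 4.884). The ranges overlap over most of their length. The difference of -0.17 (SE 0.060) had an adjusted p of 0.0399, but the call was lost on leaving out any 1 of 8 of the 16 libraries (adjusted p 0.0142 to 0.0779), within either saline set (0.167 and 0.0795) and without saline II replicate 4 of the PFCx (0.0668). Neuroblast markers, summed, were higher in the NAc (13.9 against 7.85 FPKM), opposite to the Dcx sum. The coding Dcx-201 itself was 2.33 FPKM in the NAc and 2.22 FPKM in the PFCx (0.05, limma, adjusted p = 0.640). The retained-intron Dcx-205 (0.828 and 1.06 FPKM, adjusted p = 0.117) and Dcx-206 (0.857 and 1.24 FPKM, 0.106) were lower in the NAc without a call. Under the drugs summed Dcx had a lower mean in the NAc for some treatments and a higher one for others, 4 and 3 of the 7 treatments with saline included.

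Summed transcripts of the structural microtubule-associated proteins were lower in the NAc or did not differ. Map1b (chr13:99421464-99516602, minus strand), a large MAP of growing axons, ranged from 49.07 to 58.22 FPKM in the NAc (median 53.58) and from 75.3 to 92.13 FPKM in the PFCx (median 84.12). There is no overlap, and Map1b was 1.54-fold higher in the PFCx (difference -0.62, SE 0.050, adjusted p = 5.27e-08). Mapt (chr11:104231390-104332090, plus strand), which encodes tau, ranged from 35.9 to 43.02 FPKM in the NAc (median 39.17) and from 47.31 to 65.35 FPKM in the PFCx (median 57.34), with no overlap and a difference of -0.49 (SE 0.062, adjusted p = 1.22e-05).

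For Map2 the groups touch: 138.4 to 161.5 FPKM in the NAc (median 146.6) and 158.7 to 187.2 FPKM in the PFCx (median 171.6). The difference was -0.21 (SE 0.043, adjusted p = 0.00166). Summed Map6 ranged from 12.27 to 15.5 FPKM in the NAc (median 14.05) and from 14.02 to 18.7 FPKM in the PFCx (median 17.49). The lowest PFCx value belongs to the saline II library with striatal markers at 78.8 FPKM, and it alone lies inside the NAc range. The difference was -0.28 (SE 0.060, adjusted p = 0.00227), and -0.32 without that library. Map1b, Mapt, Map2, Map6, Dclk2 and Dclk3 were called on leaving out each of the 16 libraries.

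Map1a, a MAP of mature neurons (chr2:121289600-121310832, plus strand), and Map4, the MAP that non-neuronal cells also use, did not pass the test. Map1a ranged from 70.26 to 80.81 FPKM in the NAc (median 77.77) and from 75.91 to 92.28 FPKM in the PFCx (median 82.04), a difference of -0.12 (SE 0.048, adjusted p = 0.0714). Of the 16 libraries left out singly it passed without 1, the PFCx library with striatal markers (-0.13, adjusted p = 0.0457). Map4 was 44.5 ± 3.26 and 45.5 ± 3.54 FPKM (adjusted p = 0.686). Summed means of Map1a, Map1b, Map2, Map6 and Mapt were lower in the NAc under all 7 treatments, and that of Map4 under 6 of 7. This does not hold for Map1a-202, the most abundant Map1a transcript. Its means were higher in the NAc after haloperidol (66.75 and 63.4 FPKM in the PFCx), risperidone (63.3 and 60.9) and methamphetamine (61.1 and 55.65). They were lower after mianserin (58.7 and 64.25), venlafaxine (52.5 and 61.2) and ketamine (56.8 and 59.3). The drugs with higher means are those of sample set I and the others those of set II. Saline libraries split the same way, with means of 61.4 FPKM (NAc) and 59.65 FPKM (PFCx) in set I. In set II they were 55.5 and 57.6 FPKM. Drug and sample set cannot be told apart here. Markers of striatal and cortical neurons and of oligodendrocytes move with all of the differences in gene sums, and their part in them was not tested.

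**Figure D2:**
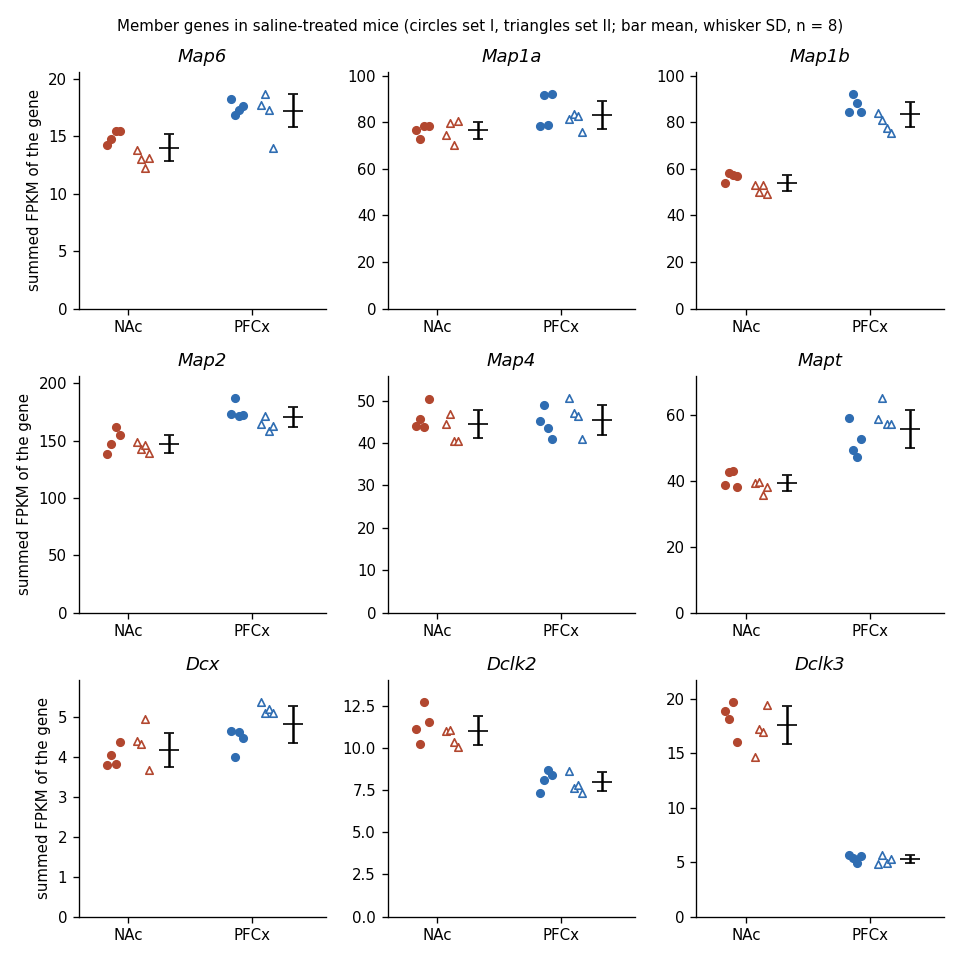
Summed FPKM of each member gene in the 16 saline libraries, NAc against PFCx, with circles for set I, triangles for set II, a bar at the mean and whiskers of 1 SD (n = 8 per tissue). Dclk3, Dclk2, Map1b and Mapt do not overlap between the tissues, and Map4 lies at the same level in both (44.5 and 45.5 FPKM). The share of all genes without overlap is not given.

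At the level of transcripts, 16 of the 72 tested differed between the tissues, 8 in each direction, against 13.7% of all 86331 transcripts tested (4.27% higher and 9.46% lower in the NAc). The share of a transcript in its gene sum, in percent, was compared as well, and 4 of 70 member shares differed, against 0.796% of all shares. Of these 4, 3 belong to Map4, the gene whose sum did not differ.

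Map4-206, the short form, ranged from 10.42 to 13.75 FPKM (median 11.82) in NAc libraries and from 18.43 to 26.48 FPKM (median 22.25) in PFCx libraries, a difference of -0.87 (adjusted p = 3.92e-07). The long Map4-205 ranged from 5.686 to 9.273 FPKM in the NAc and from 2.587 to 4.28 FPKM in the PFCx, a difference of 0.96 (adjusted p = 3.22e-06). Neither pair of ranges overlaps, and the 2 transcripts moved in opposite directions. Map4-206 thus held 26.45% ± 2.63 of Map4 in the NAc (SD, n = 8, range 22.23 to 30.12%) and 49.3% ± 6.43 in the PFCx (37.55 to 57.08%), a difference of -22.9 percentage points (SE 2.40, adjusted p = 1.84e-04). Map4-205 held 16.6% ± 2.81 (13.01 to 21.18%) and 7.26% ± 1.07 (5.577 to 8.722%), a difference of 9.31 points (SE 1.14, adjusted p = 7.55e-04).

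Map4-217, which codes for 115 amino acids, held 6.59% ± 0.752 in the NAc and 1.598% ± 1.18 in the PFCx (difference 4.99 points, adjusted p = 0.00271). Its PFCx value is near the limit of the estimate, with a median Cufflinks interval of ± 71.8% there, against ± 33.5% in the NAc. All 3 shares were called without any 1 of the 16 libraries. Within saline set I alone, with 4 libraries a tissue, none was called (-19.8 points, adjusted p = 0.0961, for Map4-206), and within set II both Map4-206 (-25.9 points, adjusted p = 0.0149) and Map4-205 (adjusted p = 0.0413) were.

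The drug libraries, which the test did not use, lay at similar shares. Map4-206 held a mean of 27.1% (19.1 to 33.3%) in the 24 NAc libraries and 49.7% (37.6 to 57.3%) in the 24 PFCx libraries, without overlap. Map4-205 held 16.9% (14.7 to 21.1%) and 7.37% (4.602 to 10.4%), also without overlap. Map4-204, the form of 933 amino acids, held 12.6 and 11.7% after saline. The median Cufflinks interval in the NAc and PFCx was ± 8.40 and 6.62% of the value for Map4-206 and ± 8.92 and 13.3% for Map4-205. The gene Gm43732 overlaps Map4, and whether strand was used in the counting is not stated. Oligodendrocyte markers were higher in the NAc (596 against 143 FPKM), and their part in the Map4 shares was not tested.

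**Figure D3:**
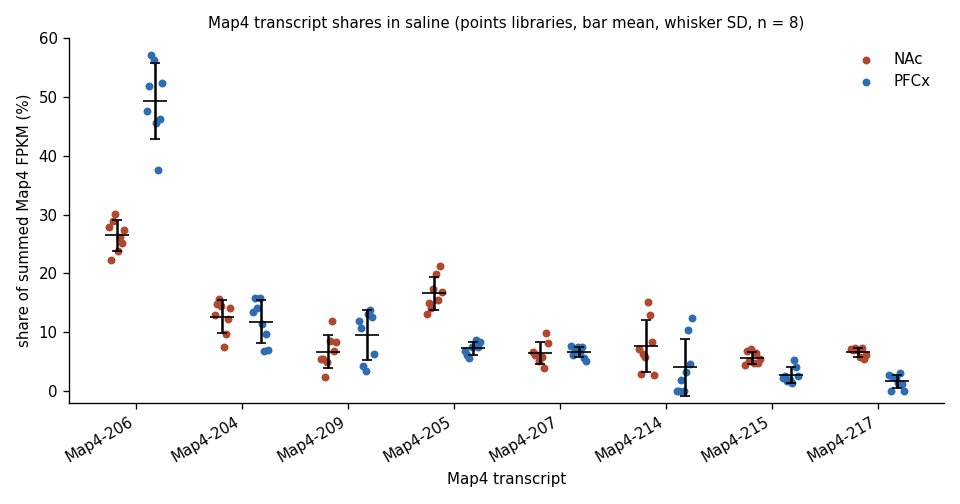
Share of Map4 held by each of its 8 described transcripts in the saline libraries, in percent of the gene sum, with 1 point per library, a bar at the mean and whiskers of 1 SD (n = 8 per tissue). Map4-206 lies at 26.45% (NAc) and 49.3% (PFCx), Map4-205 at 16.6 and 7.26%.

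Transcripts of Map2 differed between the tissues in both directions, and those called higher in the NAc are noncoding. Map2-201, the short juvenile-type form that skips the long exon, was 24.1 FPKM in the NAc and 39.5 FPKM in the PFCx (difference -0.71, adjusted p = 0.00124), but its share of 16.3 and 23.4% did not pass (adjusted p = 0.136). The long Map2-204 was 57.4 and 66.8 FPKM (-0.21, adjusted p = 0.0403), a call that was lost on leaving out any 1 of 13 of the 16 libraries (0.0135 to 0.0709), and its share was 39.0 and 39.1%. The noncoding Map2-211 and Map2-212 were higher in the NAc (0.39 and 0.32, adjusted p = 0.00156 and 6.34e-04). Map2-218, with 35 coded amino acids, was lower (-0.46, adjusted p = 0.00829).

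Mapt-204, the tau transcript of 372 amino acids that holds 60.85 and 58.98% of the gene, was 23.99 FPKM in the NAc and 32.9 FPKM in the PFCx (-0.44, adjusted p = 9.78e-06). Mapt-207 (-0.92, adjusted p = 0.00236) and the noncoding Mapt-212 (-0.97, adjusted p = 0.0126) were lower in the NAc too. Dclk2-202, a coding transcript of 708 amino acids (2.66 and 1.601 FPKM, difference 0.49, adjusted p = 6.0e-06), and Dclk2-204, a transcript annotated for nonsense-mediated decay (1.95 and 1.09 FPKM, 0.50, adjusted p = 5.02e-05), were higher in the NAc. Other coding Dclk2 transcripts were not called by limma, among them Dclk2-209 of 755 amino acids (0.36, adjusted p = 0.0747). Dclk2-206, of 711 amino acids, went the other way (-0.28, adjusted p = 0.323). The share of Dclk2-204, 17.7% ± 1.29 against 13.5% ± 1.79, was the 4th share called (4.17 points, adjusted p = 0.0442), and it was lost on leaving out any 1 of 14 of the 16 libraries (0.0263 to 0.0889). Dcx-201 held 55.7% of Dcx in the NAc and 46.2% in the PFCx (adjusted p = 0.0616).

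The remaining calls were Map4-215 (2.49 and 1.22 FPKM, 0.68, adjusted p = 0.00445), Map4-217 (2.93 and 0.745 FPKM, 1.24, adjusted p = 1.22e-04) and the single transcripts of Map1b and Dclk3. Map1a-202, which encodes 2776 amino acids, held 76.4 and 70.7% of Map1a, and neither share nor level was called. The longer Map1a-201, of 3014 amino acids, held 3.98 and 3.41%, also without a call. Genes that overlap a member are Gm10558 (Map2), Gm14978 and Ppip5k1 (Map1a), Gm11659 (Mapt), 5330431K02Rik (Map1b) and Gm37025 (Dclk2), while none overlaps Dclk3 or Dcx.

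No single Map6 transcript passed the tissue test, although the sum did. Map6-201 was 6.78 FPKM in the NAc and 8.99 FPKM in the PFCx (-0.37, adjusted p = 0.0949), Map6-202, of 306 amino acids, differed by -0.16 (adjusted p = 0.595), and Map6-204 by -0.11 (adjusted p = 0.280). The 4th described transcript listed under Map6, at chr7:99321200-99322455, carries the name Gm45591-201 in GENCODE, where it is a sense intronic RNA (-0.16, adjusted p = 0.259). It is counted in the Map6 sum and shares throughout, and held 10.21% of the sum in the NAc and 9.985% in the PFCx after saline. The median Cufflinks interval in the NAc and PFCx was ± 11.5 and 9.95% of the value for Map6-201, ± 13.5 and 13.1% for Map6-204 and ± 40.3 and 36.6% for Gm45591-201.

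The drug values of Map6 follow as a description, since they chose the gene. In the NAc, Map6-204 was 1.56, 1.85, 1.71 and 1.64 FPKM in the 4 mianserin libraries (mean 1.69 ± 0.121, SD, n = 4). The other 28 NAc libraries lay between 2.22 and 3.67 FPKM, and the 8 saline libraries between 2.231 and 3.424 FPKM (median 2.995, mean 2.92 ± 0.410). The mianserin libraries thus lie below every other NAc library, at 0.578 of the saline mean, a difference of -0.54 on the log2 scale against all saline libraries and against saline set II alone. Saline sets I and II had means of 2.92 and 2.93 FPKM for this transcript.

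The order of the NAc treatments for Map6-204 was methamphetamine (3.55 ± 0.085 FPKM), saline, haloperidol (2.69), risperidone (2.59), venlafaxine (2.49), ketamine (2.47) and mianserin. Between neighbours in this order, the gaps from methamphetamine to saline and from ketamine to mianserin exceeded the larger SD of the pair and the others did not. In the PFCx, the mianserin libraries lay between 2.71 and 3.23 FPKM (mean 2.86 ± 0.247) and the other 28 between 2.78 and 4.00 FPKM, with saline at 3.23 ± 0.271. Mianserin was again the lowest mean, with venlafaxine at 3.03, risperidone at 3.24, ketamine at 3.34, haloperidol at 3.63 and methamphetamine at 3.65 FPKM, but its libraries overlap with those of saline. The drug difference between the tissues was not tested for Map6.

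The differences between Map6 transcripts in their drug response were not tested. After mianserin in the NAc, Map6-201 differed from saline by -0.12 against all saline libraries and by 0.12 against saline set II, Map6-202 by -0.20 and -0.28, and Gm45591-201 by -0.16 and -0.26. Map6-204 held 15.1% of Map6 in the mianserin libraries and 20.95% after saline in the NAc. In the PFCx it held 16.7 and 18.9%. The Map6 sum in the NAc mianserin libraries was 9.64, 12.4, 11.9 and 11.2 FPKM, which overlaps with saline set II (12.27 to 13.81 FPKM). The sum differed by -0.29 against all saline libraries and by -0.20 against set II.

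In summed Map6, the NAc means ran from methamphetamine (15.8 FPKM) through haloperidol (14.8), risperidone (14.1), saline (14.03), ketamine (13.0) and venlafaxine (11.6) to mianserin (11.3), and the gap from ketamine to venlafaxine was the single one between neighbours that exceeded the larger SD. Saline sets I and II had means of 15.0 and 13.05 FPKM in the NAc without overlap, so this order runs along the sample sets. In the PFCx, the means ran from 18.65 FPKM (haloperidol) to 15.7 FPKM (venlafaxine) and every gap between neighbours was below the larger SD.

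**Figure D4:**
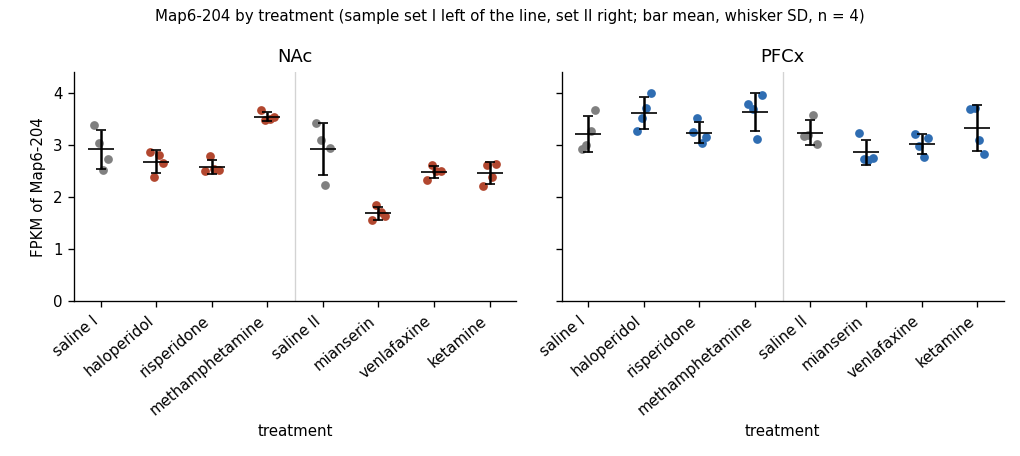
FPKM of Map6-204 in each library by treatment in the NAc and PFCx, with sample set I left and sample set II right of the line, and the mean with 1 SD (n = 4 per group). The 4 NAc mianserin libraries (1.56 to 1.85 FPKM) lie below the other 28 NAc libraries (2.22 to 3.67 FPKM).

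The transcripts of other genes whose drug pattern was most like that of Map6-204 were looked for among 22834 transcripts with a mean of at least 1 FPKM in both tissues. Likeness was Pearson's r over 12 points, the log2 differences of 6 drugs from the saline of their own set in 2 tissues. Points of 1 set share their saline libraries, and r is a description. Among the highest were transcripts of Sfpq (ENSMUST00000140682, r = 0.946), Atxn7l3 (ENSMUST00000141516, 0.893), Gm26672 (ENSMUST00000192805, 0.890) and Gpi1 (ENSMUST00000206603, 0.890). Sfpq encodes a splicing factor. The differences of these 4 after mianserin in the NAc were -1.06, -0.92, -0.37 and -0.80, and in PFCx libraries they were -0.17, -0.48, -0.20 and -0.41.

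For the other 8 genes the drug comparisons were tested. Of 48 pairs of gene and drug in the NAc, 1 was called against all saline libraries and 1 against the saline of the own set, and these were different pairs. Over all genes, 1.21% of such pairs were called in the NAc against all saline libraries and 0.297% against the own set. In the PFCx, 0 of 48 were called either way by limma, while 8 of 48 had an unadjusted p under 0.05 in each case (8 and 7 in the NAc), and 0.285% and 0.767% of the pairs of all genes were called. The share of all features with an unadjusted p under 0.05 is not given. Here and below, such counts therefore cannot be read as an excess in the members.

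The pair called against all saline libraries was Map4 after venlafaxine. The 4 NAc libraries had 39.5, 39.5, 35.9 and 37.6 FPKM of Map4 (mean 38.1 ± 1.75), against 40.39 to 50.34 FPKM after saline (median 44.22). No venlafaxine library overlaps with saline, and the difference was -0.22 (SE 0.056, adjusted p = 0.0473), where 1.83% of all genes were called for this drug and 0.0081% against the own set. The call held without 10 of the 32 NAc libraries left out singly and was lost without the other 22 (adjusted p 0.0213 to 0.208), and against saline set II the difference was -0.17 (adjusted p = 0.741). The difference of this drug effect between the tissues was -0.25 (adjusted p = 0.170).

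The pair called in the own set was Map1b after ketamine. Its NAc libraries had 60.1, 60.03, 65.3 and 57.4 FPKM (mean 60.7 ± 3.28), against 53.0, 49.9, 53.2 and 49.1 FPKM in saline set II (51.3 ± 2.11) and 53.9, 58.2, 57.4 and 56.8 FPKM in set I. All ketamine libraries lie above set II and 3 of 4 above set I. The difference was 0.24 (SE 0.050, adjusted p = 0.0096) against set II and 0.17 (adjusted p = 0.0635) against all saline libraries, with 0.967% and 1.97% of all genes called for ketamine. Markers of cortical projection neurons moved with it: their sum was 74.0, 59.3, 65.5 and 48.2 FPKM in the NAc ketamine libraries and 46.2, 37.5, 35.2 and 25.0 FPKM in saline set II, and 50.9 to 69.3 FPKM in set I. Oligodendrocyte markers summed to 658 to 723 FPKM after ketamine, 512 to 575 FPKM in set II and 617 to 703 FPKM in set I, and astrocyte markers to 77.8 to 80.7, 64.01 to 69.4 and 69.4 to 78.2 FPKM. Endothelial markers were lower after ketamine than in set II, at 10.2 to 11.9 and 12.8 to 13.8 FPKM, with 11.6 to 13.6 FPKM in set I. The part of these markers in the Map1b difference was not tested.

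Across all 6 drugs at once (moderated F), Map1b (adjusted p = 0.0116) and Map4 (0.0232) were called in the NAc, where 36.9% of all genes were. Against the own sample set, Map1b was called (0.0325) and Map4 was not (0.348), with 1.63% of all genes called. Map1b means in the NAc ran from 51.2 FPKM after venlafaxine to 60.7 FPKM after ketamine, with haloperidol at 59.9, methamphetamine at 56.8, risperidone at 55.7 and mianserin at 55.6 FPKM, and saline sets I and II differed as well (56.6 and 51.3 FPKM, no overlap). Map1b was called without any 1 of the 32 libraries, and Map4 was lost without venlafaxine replicate 3 (0.0743) or 4.

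In the PFCx, Dclk3 (adjusted p = 0.0132) and Dcx (0.0349) were called across all drugs, against 3.34% of all genes. With the own set as the control, Dclk3 stayed under the threshold (0.0407) and Dcx did not (0.224), and 1.45% of all genes were called. For Dcx, the saline sets had means of 4.45 FPKM (set I) and 5.20 FPKM (set II) without overlap, and the drugs of set I had 3.88 (haloperidol), 4.06 (risperidone) and 3.803 FPKM (methamphetamine) and those of set II 4.62 (mianserin), 4.72 (venlafaxine) and 4.29 FPKM (ketamine). The call was lost without 16 of the 32 libraries left out singly. The lowest adjusted p of a single pair in the PFCx own sets was that of Dcx after ketamine (-0.23, 0.0824).

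Dclk3 was higher after both antipsychotics in the PFCx, though only these were given with HCl, so drug and vehicle cannot be told apart. Its libraries had 6.73, 5.98, 6.70 and 6.10 FPKM after haloperidol (mean 6.38 ± 0.393) and 6.20, 6.99, 6.63 and 6.71 FPKM after risperidone (6.63 ± 0.327), and all 8 lie above all 8 saline libraries (4.84 to 5.67 FPKM). As single drugs they did not pass: the difference was 0.28 (SE 0.069, adjusted p = 0.0547) for risperidone and 0.23 (SE 0.069, adjusted p = 0.144) for haloperidol, and 0.26 (0.363) and 0.21 (0.754) in the own set. After ketamine the libraries were uneven, with 7.28, 5.28, 7.32 and 5.87 FPKM. The high ones, replicates 1 and 3, are those with striatal markers at 57.1 and 54.2 FPKM, against 24.8 and 24.05 FPKM in replicates 2 and 4. The other PFCx libraries with striatal markers were not high in Dclk3 within their groups. Saline set II replicate 4 (striatal sum 78.8 FPKM) had 5.26 FPKM, and risperidone replicate 3 (76.8 FPKM) had 6.63 FPKM.

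Without the 4 PFCx libraries with striatal markers, Dclk3 was still called across drugs (0.0268). The ketamine difference then fell to 0.06 (adjusted p = 0.865) from 0.23 (0.366), while those of risperidone (0.28, 0.107) and haloperidol (0.23, 0.212) kept their size. Striatal markers were 24.8 to 29.5 FPKM in the haloperidol libraries and 27.9, 24.7, 76.8 and 37.3 FPKM in those of risperidone. Dclk3 was called without any 1 of the 32 libraries. Its mean was 5.32 FPKM after methamphetamine, 5.71 after mianserin and 5.002 after venlafaxine.

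Dclk3 was also the single member gene whose drug effect differed between the tissues (adjusted p = 0.0185 for the interaction over 6 drugs, 12.9% of all genes called). In the NAc its means were below saline (17.6 FPKM) under every drug: haloperidol 16.5, risperidone 17.4, methamphetamine 16.2, mianserin 16.5, venlafaxine 16.4 and ketamine 14.95 FPKM, the latter from libraries with 13.0, 14.5, 15.6 and 16.8 FPKM. Of the single terms, that of ketamine was called (-0.46, SE 0.108, adjusted p = 0.0434, 0.313% of all genes called). With the own set as the control the interaction was not called (0.118, 0.759% of all genes called), nor was it without the 4 PFCx libraries with striatal markers (0.124). The ketamine term was then -0.29 (0.304). It was also lost without 13 of the 64 libraries left out singly, among them PFCx ketamine replicates 1 (-0.40, 0.0921) and 3 (-0.40, 0.106).

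**Figure D5:**
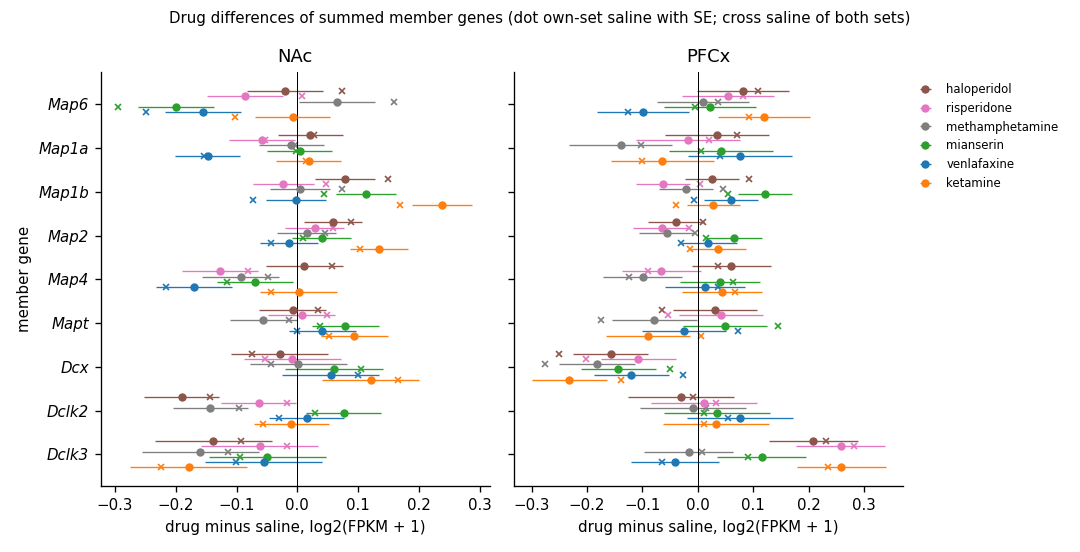
Difference of each drug from saline on the log2 scale for the 9 member genes in the NAc and PFCx. Dots with bars are the difference from saline of the own sample set with its SE, and crosses the difference from all 8 saline libraries. Dclk3 after risperidone in the PFCx (0.26 and 0.28) and Map1b after ketamine in the NAc (0.24 and 0.17) are among those that stand to the right of 0.

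None of the remaining pairs passed. The differences of greatest size in the NAc, against all saline libraries, were 0.05 for Mapt (ketamine, adjusted p = 0.566), 0.17 for Dcx (ketamine, 0.178), -0.14 for Dclk2 (haloperidol, 0.216), -0.22 for Dclk3 (ketamine, 0.129), -0.15 for Map1a (venlafaxine, 0.0719) and 0.10 for Map2 (ketamine, 0.172). In the PFCx they were -0.17 for Mapt (methamphetamine, 0.461), -0.28 for Dcx (methamphetamine, 0.0623), -0.12 for Map4 (methamphetamine, 0.575), 0.05 for Dclk2 (venlafaxine, 0.937), -0.10 for Map1a (methamphetamine, 0.743), 0.09 for Map1b (haloperidol, 0.383) and -0.03 for Map2 (venlafaxine, 0.936). Against the own set, the NAc differences in this order were 0.09, 0.12, -0.19, -0.18, -0.15 and 0.13, and the PFCx ones -0.08, -0.18, -0.10, 0.08, -0.14, 0.02 and 0.02. The sign of Map2 after venlafaxine in the PFCx thus changed with the control, and none of the 13 passed against the own set. The largest of the 13, that of Dcx, is one in which the saline sets also differ.

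Single transcripts gave no call against all saline libraries for any drug in limma, among 408 pairs per tissue, of which 45 in the NAc and 37 in the PFCx had an unadjusted p under 0.05. Of the pairs of all transcripts, 0.193% and 0.107% were called, and 0.114% and 0.285% with the own set. Against the own set, 1 pair was called in the NAc, the single Map1b transcript after ketamine (adjusted p = 0.0388, 0.339% of all transcripts called), and 0 in the PFCx (38 unadjusted). Over all drugs at once, 4 of 68 transcripts were called in the NAc, against 11.6% of all transcripts: Map1a-202 (0.00883), Map1a-204 (0.0229), Map2-204 (0.0246) and Map1b-201 (0.0414). With the own set as the control none of these was (0.577, 0.722, 0.427 and 0.103, with 0.645% of all transcripts called).

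Map1a-202 means in the NAc were 66.8 FPKM after haloperidol, 63.3 after risperidone, 61.1 after methamphetamine and 61.4 in saline set I, and 58.7, 52.5, 56.8 and 55.5 FPKM after mianserin, venlafaxine and ketamine and in saline set II. The values thus differ between the sample sets as well as between drugs. Map1a-204 was 6.34 and 5.996 FPKM after haloperidol and risperidone, 10.4 FPKM in saline set I and 15.2 FPKM in set II. The share of Map1a-202 was the single one of 66 called across drugs in the NAc (0.0356, 1.42% of all shares called; 0.846 with the own set, 0.0626% called), and it was lost without 10 of the 32 libraries left out singly (0.0141 to 0.077). In the PFCx limma called 0 of 66 shares (3 with an unadjusted p under 0.05), and 0.0504% of all shares.

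In the PFCx, 2 of 68 transcripts were called over all drugs, against 1.12% of all (0.484% with the own set): that of Dclk3 (0.0382, own set 0.0924, 0.0753 without the libraries with striatal markers) and Mapt-212 (0.00383, own set 0.101), a noncoding transcript of 6 exons and 464 bases. Mapt-212 ranged from 0.5827 to 3.54 FPKM in the 8 saline libraries (median 1.905). It was at most 0.4643 FPKM after haloperidol, 0.8635 FPKM after methamphetamine, 0.8581 FPKM after risperidone and 1.624 FPKM after ketamine, with at least 1 library per drug listed close to 0, and lay between 1.766 and 2.886 FPKM after mianserin and between 1.342 and 4.634 FPKM after venlafaxine. As single differences, haloperidol (-1.34, adjusted p = 0.0656) and methamphetamine (-1.12, 0.141) did not pass. Of the interactions, 0 of 68 transcripts were called (lowest adjusted p 0.0717, 13 with an unadjusted p under 0.05, 1.59% of all transcripts called).

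Other genes of the microtubule system were taken from a list of 57 tested genes: tubulins, stathmins, other MAPs, severing factors, end-binding proteins, kinases of MAPs, motors and 2 further genes with doublecortin domains. After saline, 34 were lower in the NAc, 4 higher and 19 not called, where 26.8% of all genes were lower and 7.16% higher. The median difference was -0.28 against -0.10 over all genes. Rescaling each library to the same 75th percentile gave a median of -0.23, and all 38 calls kept their sign. The list was chosen with earlier results of these data known, and its counts are a description.

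Among tubulins, the subunits of the polymer, 9 of 10 were lower in the NAc, with Tubb2a at 61.4 FPKM in the NAc and 108.4 FPKM in the PFCx (-0.82), and Tubg1 was not called. Tubb3 was also chosen as a tubulin, but it has no value here and is not in this count. All 4 stathmins, which bind free tubulin dimers, were lower: Stmn1 was 39.3 and 107.9 FPKM (-1.46, adjusted p = 1.72e-07) and Stmn2 26.01 and 59.97 FPKM (-1.20). Of 7 motor genes 5 were lower, such as the kinesin Kif5a (-0.34) and the dynein intermediate chain Dync1i1 (-0.62), as were 8 of 11 end-binding genes, 4 of 7 severing or depolymerising genes and 1 of 7 kinases (Mark4, -0.30). The 4 genes higher in the NAc were all among the other MAPs: Mtus1 (7.20 and 4.36 FPKM, 0.61), Map1s (0.27), Map6d1 (0.26), a relative of Map6, and Map7 (0.21), while Map7d2 (-0.52) and Map9 (-0.30) were lower.

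Of 342 pairs of listed gene and drug per tissue, limma called 2 in NAc and 0 in PFCx libraries (75 and 33 with an unadjusted p under 0.05), beside 1.21% and 0.285% of the pairs of all genes. The share of all pairs at the unadjusted threshold is again not given. Clip2, a protein of growing microtubule ends, was 9.62 FPKM after haloperidol and 7.88 FPKM after saline (0.26, adjusted p = 0.0300, and 0.21, adjusted p = 0.356, against the own set), and Map1s, a short relative of Map1a and Map1b, was 7.18 FPKM after risperidone and 5.54 FPKM after saline (0.33, adjusted p = 0.0490, and 0.18, adjusted p = 0.621, against the own set).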

How the data were processed

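The authors sequenced RNA depleted of ribosomal RNA from mouse NAc and PFCx on an Ion Torrent instrument (single reads longer than 100 bases), aligned the reads to mm10 with TopHat2 2.0.1 and then Tmap, and estimated transcript abundance as FPKM with Cufflinks 2.2.1 and an Ensembl annotation. The deposited tables, 1 per library, also give for each transcript the read coverage per base as estimated by the authors' Cufflinks run, which is not scaled to depth. They hold no comparisons and no read counts, so no count test was possible. Whether strand was used in the counting, and how reads that match several places were handled, is not given in the sources used here. Cufflinks divides reads between overlapping isoforms by likelihood, so an error in one isoform can pass to others of the same gene. The aligned bases behind a library, taken as the median over transcripts (length 2000 bases or more, 5 FPKM or more) of coverage divided by FPKM, were 1.52 to 3.26 gigabases (median 2.39, 64 libraries).

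FPKM of the transcripts listed under each member's symbol were summed per gene, and each transcript was expressed as a percentage of its gene sum for genes of at least 1 FPKM. Of the 79 member transcripts 72 passed the filter of a mean of at least 0.1 FPKM over the 32 libraries of either tissue, and the 33 with at least 5% of their gene in either tissue are described. All 9 genes passed. Fold changes are on the log2(FPKM + 1) scale, which understates changes of low transcripts. Tests were made with limma 3.58.1 in R 4.3.3 on the whole tables (p-values adjusted by Benjamini-Hochberg, threshold 0.05), following the analysis of variance of log2(1 + x) used in the study: within each tissue over 7 groups of 32 libraries, over the 16 saline libraries for the tissue difference, and over 14 groups of 64 libraries for the difference of drug effects between tissues. Drug tests count the 8 genes, 68 transcripts and 66 shares other than those of Map6. The members, lists and markers, and the transcripts named, were chosen with earlier results of these data known. By rule, all members past the threshold are named, and otherwise the difference of greatest size. The rule for likeness to Map6-204 names 5 transcripts, of which 1 is not reported here. The fits were tested on simulated data. No 2 libraries were duplicates (highest correlation of log2 values between libraries 0.940).

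Alternatives tried were adding 0.1 in place of 1 FPKM, dropping the filter or raising it to 1 FPKM, a mean-variance trend in limma, scaling by the 75th percentile, complete quantification status, the saline of the own set, saline set I or II alone, the replicate number as a block and leaving out each library. Leaving out the PFCx libraries with summed striatal markers above 50 FPKM was chosen after seeing the data. Sequences and exons were read from GENCODE vM21 with numpy 2.4.6 and pandas 2.3.3 in Python 3.11.15. Reads, protein sequences and promoters were not analysed here.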

Additional observations from a re-analysis of the deposited data

Results flagged for a closer look

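In 5 of 126 combinations of member gene and group, 1 library stood apart from the others of its group by the test of Dixon, which chance does in about 1 of 20 groups. All 5 were in the PFCx. Summed Map6 was 19.5 FPKM in risperidone replicate 4 against 17.8 to 17.9 FPKM in the other 3, and 14.02 FPKM in saline set II replicate 4 against 16.9 to 18.7 FPKM in the other 7 saline libraries. The latter library had the striatal marker sum of 78.8 FPKM.

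Map4 was 55.4 FPKM in ketamine replicate 1, another library with striatal markers (57.1 FPKM), against 45.0 to 45.6 FPKM. Mapt was 42.3 FPKM in methamphetamine replicate 3 against 51.1 to 52.5 FPKM, and the mean difference of Mapt after methamphetamine given above (-0.17) includes it. Dcx was 4.96 FPKM in ketamine replicate 4 against 4.05 to 4.08 FPKM.

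The drug effect on Dclk3 differed between the tissues (adjusted p = 0.0185, limma, interaction over 6 drugs). The value was 0.118 with the saline of the own sample set and 0.124 without the 4 PFCx libraries with striatal markers.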

How the results depend on the processing

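No called difference reversed its direction under the alternatives. Differences without a call did: against all saline libraries and against set II, Map6-201 after mianserin in the NAc was -0.12 and 0.12 (untested) and Map2 after venlafaxine in the PFCx -0.03 and 0.02. Of 409 alternative values for single features, other than those that left out a library, 335 kept their side of the threshold, 73 lost it and 1 moved. Of 151 alternative counts of calls 104 stayed within 1.5 times. The counts of genes (7) and transcripts (16) that differed between the tissues were among those, while counts of drug calls, all between 0 and 4 in the analysis as reported, moved with the control chosen. The cause was not tested. Cufflinks gave intervals of ± 13.5% for Map6-204 and ± 40.3% for Gm45591-201 in the NAc.

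Counts are given here without Map6 for drugs. With the saline of the own set as the control, transcripts called over all drugs were 0 in both tissues (4 in the NAc and 2 in the PFCx as reported), transcript pairs in the NAc 1 (0), genes over all drugs 1 in each tissue (2 each), interaction genes 0 (1) and shares in the NAc 0 (1). With saline set I alone, transcript pairs were 3 (NAc) and 5 (PFCx), from 0 each, genes over all drugs in the PFCx 1 (2), gene pairs in the NAc 6 (1), interaction genes 3 (1), drug shares in the NAc 3 (1) and tissue shares 0 (4). With saline set II alone, transcripts over all drugs in the PFCx were 7 (2), transcript pairs 5 in the NAc and 15 in the PFCx (0 each), gene pairs 3 (1) in the NAc, 7 (0) in the PFCx, interaction transcripts 4 (0), drug shares 2 (1) in the NAc, 1 (0) in the PFCx, and tissue shares 2 (4).

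With a pseudocount of 0.1, transcripts over all drugs were 1 in each tissue, genes 0 (NAc) and 1 (PFCx), and gene pairs in the NAc 0. With a mean of at least 1 FPKM, which leaves fewer features to test, transcripts over all drugs in the NAc were 2, transcript pairs in the PFCx 1, gene pairs 0 (NAc) and 2 (PFCx) and drug shares in the NAc 3. With a mean-variance trend, transcripts over all drugs were 2 (NAc) and 1 (PFCx) and drug shares in the NAc 0. Without a filter, gene pairs in the NAc were 3, interaction transcripts 1 and interaction genes 2, and with 75th percentile scaling interaction transcripts were 1. Without the PFCx libraries with striatal markers, transcripts and genes over all drugs in the PFCx were 1 each and interaction genes 0. The Dcx tissue difference was also lost with 75th percentile scaling (adjusted p = 0.175) and a pseudocount of 0.1 (0.0762).

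Whether equal replicate numbers mark libraries that belong together was not settled. Each library's deviation from its group was correlated with those of libraries of equal number. The r averaged 0.0244 (NAc) and 0.0413 (PFCx), with 2 and 16 of 112 pairs over 0.1 (highest 0.118 and 0.291). The condition set for pairing, that every pair exceed 0.1, was not met. Failing so strict a condition does not show that the libraries are unpaired. For unequal numbers r averaged -0.00813 and -0.0136, with 0 and 1 of 336 pairs over 0.1, and for saline libraries across the tissues -0.0182. With the replicate block, transcripts and genes over all drugs in the PFCx were 1 each, gene pairs in the NAc 0 (Map4 after venlafaxine was lost, adjusted p = 0.0511) and drug shares in the NAc 0. The block also took the Dcx tissue difference (adjusted p = 0.0641) and the Dclk2-204 share (0.107) past the threshold.

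Leaving out 1 library at a time, 395 of 496 counts stayed within 1.5 times. The ranges were 2 to 5 transcripts over all drugs in the NAc and 1 to 3 in the PFCx, 1 to 4 and 1 to 2 genes over all drugs, 0 to 0 and 0 to 2 transcript pairs, 0 to 2 and 0 to 3 gene pairs, 0 to 1 interaction transcripts, 1 to 2 interaction genes, 0 to 2 and 0 to 0 drug shares, 3 to 5 tissue shares, 6 to 7 tissue genes and 15 to 17 tissue transcripts.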

Other observations

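The 2 saline sets of a tissue, with 4 libraries each, had ranges that do not overlap for several members beside those given above. The differences were not tested. The share of all genes and transcripts with such ranges is not given, so the list does not set these members apart. In the NAc, Map6-201 was 8.05 FPKM in set I and 5.51 FPKM in set II, and Map4-209 was 4.09 and 1.96 FPKM. In the PFCx, summed Map2 was 176 and 164 FPKM, Map1b 87.2 and 79.4 FPKM, Map2-204 72.1 and 61.6 FPKM, and Mapt-204 30.7 and 35.1 FPKM. Within Map4 in the PFCx, Map4-214 was 3.41 and 0.213 FPKM, Map4-204 3.88 and 6.81 FPKM and Map4-206 20.2 and 24.5 FPKM, with Map4-214 lower in set II and Map4-204 and Map4-206 higher.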
